A study of Mus musculus with 6 samples.

Results

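The S100 and annexin genes described here are 10 genes, read by symbol from a deposited table of 12968 genes: S100a1, S100a6, S100a10, S100a11, S100a13, Anxa2, Anxa3, Anxa5, Anxa6 and Anxa7. All 10 were in the table. The 6 libraries hold RNA pulled down with ribosomes from the middle section of the left brain hemisphere of 6 mice, 1 library per mouse. In 3 mice the middle cerebral artery had been occluded for 1 h (MCAO, a model of ischemic stroke), and 3 control mice had no occlusion, with no sham operation described; all were killed after 3 days. Every library came from a RiboTag precipitation, in which cells with Cre recombinase carry an epitope-tagged Rpl22 in their ribosomes. The series title names astrocytes, but the labels give no Cre driver, strain, sex or age.

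S100 proteins are small calcium sensors built from a pair of EF-hand loops, and most work as dimers that bind a target protein when calcium rises. Annexins bind the inner face of membranes in a calcium-dependent way, and several take part in membrane repair, exocytosis and the organisation of cortical actin. The families meet in the S100A10-annexin A2 complex, in which a dimer of S100A10, a member that has lost calcium binding, holds a pair of annexin A2 molecules. In mouse brain, S100B and S100A1 are long known from astrocytes, and S100a10 is widely used as a marker of one reactive astrocyte state. Several of the 10 genes are also expressed by myeloid, vascular and other cells.

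Promoter windows of 4 members that rose after MCAO, Anxa2, S100a11, S100a6 and S100a13, are shown first, so that their letters can be set beside values that moved in the same direction. RefSeq windows of 300 bases, from 250 before to 50 after an annotated start on GRCm38.p6, were given for 7 of the 10 members. Capitals mark letters of 4 motifs searched on both strands: the AP-1 site TGANTCA, the STAT site TTCNNNGAA, the GC box GGGCGG and the TATA box TATAAA. The windows run 5′ to 3′ on the strand of the gene and are Anxa2 (chr9:69453433-69453732, plus strand), S100a11 (chr3:93520246-93520545, plus), S100a6 (chr3:90612644-90612943, plus) and S100a13 (chr3:90514185-90514484, plus).
Anxa2: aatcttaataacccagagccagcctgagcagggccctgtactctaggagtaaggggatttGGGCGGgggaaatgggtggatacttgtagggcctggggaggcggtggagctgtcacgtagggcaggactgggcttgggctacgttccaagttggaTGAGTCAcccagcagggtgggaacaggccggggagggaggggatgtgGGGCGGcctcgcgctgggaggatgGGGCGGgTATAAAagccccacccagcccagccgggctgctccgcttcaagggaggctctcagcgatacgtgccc
S100a11: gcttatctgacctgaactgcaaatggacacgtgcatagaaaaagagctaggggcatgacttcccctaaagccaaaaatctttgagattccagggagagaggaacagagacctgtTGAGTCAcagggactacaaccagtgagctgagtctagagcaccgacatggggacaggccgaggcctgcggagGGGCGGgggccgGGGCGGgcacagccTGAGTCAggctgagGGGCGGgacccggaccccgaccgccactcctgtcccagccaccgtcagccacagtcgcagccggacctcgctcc
S100a6: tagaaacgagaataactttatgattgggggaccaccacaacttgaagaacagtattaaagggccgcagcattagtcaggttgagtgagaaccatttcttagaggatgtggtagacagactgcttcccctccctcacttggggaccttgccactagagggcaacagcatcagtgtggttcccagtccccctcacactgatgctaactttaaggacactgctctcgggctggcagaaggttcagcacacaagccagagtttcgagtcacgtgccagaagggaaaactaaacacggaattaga
S100a13: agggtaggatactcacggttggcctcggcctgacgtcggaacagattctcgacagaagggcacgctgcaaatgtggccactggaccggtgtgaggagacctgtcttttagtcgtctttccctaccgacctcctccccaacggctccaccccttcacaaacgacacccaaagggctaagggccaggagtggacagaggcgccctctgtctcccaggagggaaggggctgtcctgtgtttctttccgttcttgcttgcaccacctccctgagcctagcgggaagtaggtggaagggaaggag
The Anxa2 window held 1 AP-1 match at -95 to -89, counted from the start as 0, 3 GC boxes and a TATA box at -17 to -12, 1 base after a GC box at -24 to -19. The S100a11 window held 2 AP-1 matches, at -136 to -130 and -38 to -32, and 3 GC boxes. The S100a6 and S100a13 windows held none of the 4 motifs; the S100a13 window shares 204 bases with that of its neighbour S100a1. Among all 32851 windows of the table, 7.8% held an AP-1 match, 8.3% a STAT match, 35.7% a GC box and 13.6% a TATA box. Of the 8 windows of members, 2 held an AP-1 match, 0 a STAT match, 4 a GC box and 1 a TATA box. Anxa7 has 2 of these windows, which overlap and both hold a GC box, so that gene is counted more than once. A match is a string of letters and was not tested as a binding site.

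Values are scaled read counts, that is the reads of a gene over a scale factor for its library, with every value under 1 set to 1 in the deposited table. Reads recovered from the steps in the values numbered from 882263 in MCAO 2 to 9519548 in control 1, so that 3 reads, the limit that a count of 0 allows, equal from 0.863 scaled reads in control 1 to 9.33 in MCAO 2. Rpl22, the tagged gene, was at 251 ± 52.1 scaled reads after MCAO and 197 ± 32.8 in controls (SD, n = 3 each) and was not called. Microglia markers were higher after MCAO in 10 of 14 genes, beside 2.3% of all tested genes. Their summed levels were 2466 to 3354 scaled reads after MCAO and 682 to 938 in controls. The called genes Cd68, Tyrobp and Trem2 had control means of 4.95, 6.46 and 8.998 scaled reads. Aif1, which was not called, had a control mean of 4.43. With a filter at a mean of 10 over all libraries, these genes were tested only through their MCAO values. Both tested blood myeloid markers of 10 listed, Csf3r and Lyz2, were higher, with summed levels of 111 to 121 scaled reads after MCAO and 14.4 to 24.1 in controls (1 called when any 1 library but control 2 was left out). Csf3r, with a control mean of 2.86 scaled reads, was likewise tested only through its MCAO values. The neutrophil genes S100a8 and S100a9 were not analysed here. Oligodendrocyte markers were higher in 5 of 10 genes, beside 2.3% of all tested genes. Their sums were 12330 to 15831 after MCAO and 8320 to 9496 in controls. With any 1 library left out 2 or 3 were called. With no intensity trend limma called 0 of them, and DESeq2 called 8. Summed levels overlapped between groups for 4 lists. Astrocyte markers summed to 39378 to 51456 after MCAO and 42981 to 71255 in controls, with 0 of 12 called. Without control 2 limma called 4, and without the shallowest library of each group 6. The log2 change was positive in 4 of the 12, with a median of -0.19, beside -0.01 for all tested genes. Endothelial markers summed to 94.6 to 101.8 after MCAO and 78.0 to 110.0 in controls, with 0 of 5 tested genes called. Mural and fibroblast markers summed to 206 to 339 after MCAO and 298 to 469 in controls, with 0 of 6 called. Neuron markers summed to 13891 to 16499 after MCAO and 15029 to 17338 in controls, with 1 of 10 lower. Without control 1, without MCAO 3 or with no intensity trend 0 were called. For the astrocyte, endothelial and mural lists limma gave 2, 0 and 1 genes at an unadjusted p under 0.05. For the same lists edgeR called 0 in each, and DESeq2 called 2, 0 and 0. Over all 12549 tested genes limma gave 2420 at an unadjusted p under 0.05. Ependymal and choroid plexus markers summed to 789.9 to 1120 after MCAO and 741.5 to 767 in controls, with 0 of 4 called by limma, 1 at an unadjusted p under 0.05 and 0 called by edgeR or DESeq2. The part of these other cells in the results below was not tested, and in such bulk samples more cells of a type and more RNA per cell cannot be told apart.

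After MCAO 6 of the 10 members rose: S100a6, S100a10, S100a11, S100a13, Anxa2 and Anxa3. None fell, and S100a1, Anxa5, Anxa6 and Anxa7 did not pass the test. Calls were made in limma, at an adjusted p under 0.05, with the model fitted on log2(scaled read count + 1) over all 12549 genes with a mean of at least 10 and adjusted by Benjamini-Hochberg over all of them. By this rule 3.08% of all tested genes were called, 2.3% higher after MCAO and 0.789% lower (a share that rests on 99 genes, and on 18 to 231 under some alternatives), and of the 10 members 6 were called higher and 0 lower. The median log2 change of the members was 1.66, beside -0.01 for all tested genes. Among the 5 S100 members 4 rose, with a median log2 change of 2.27, and among the 5 annexins 2 rose, with a median of 0.47. The 3 MCAO libraries lay above all 3 controls in 9 members, the exception being Anxa5, and in 12.4% of tested genes. Anxa3 and S100a11 passed the filter on the mean only through their MCAO values, and each of the member medians above includes at least 1 of them. Of the 8 members with a control mean of at least 10, 4 rose, and the median log2 change of the 8 was 0.98.

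**Figure D1:**
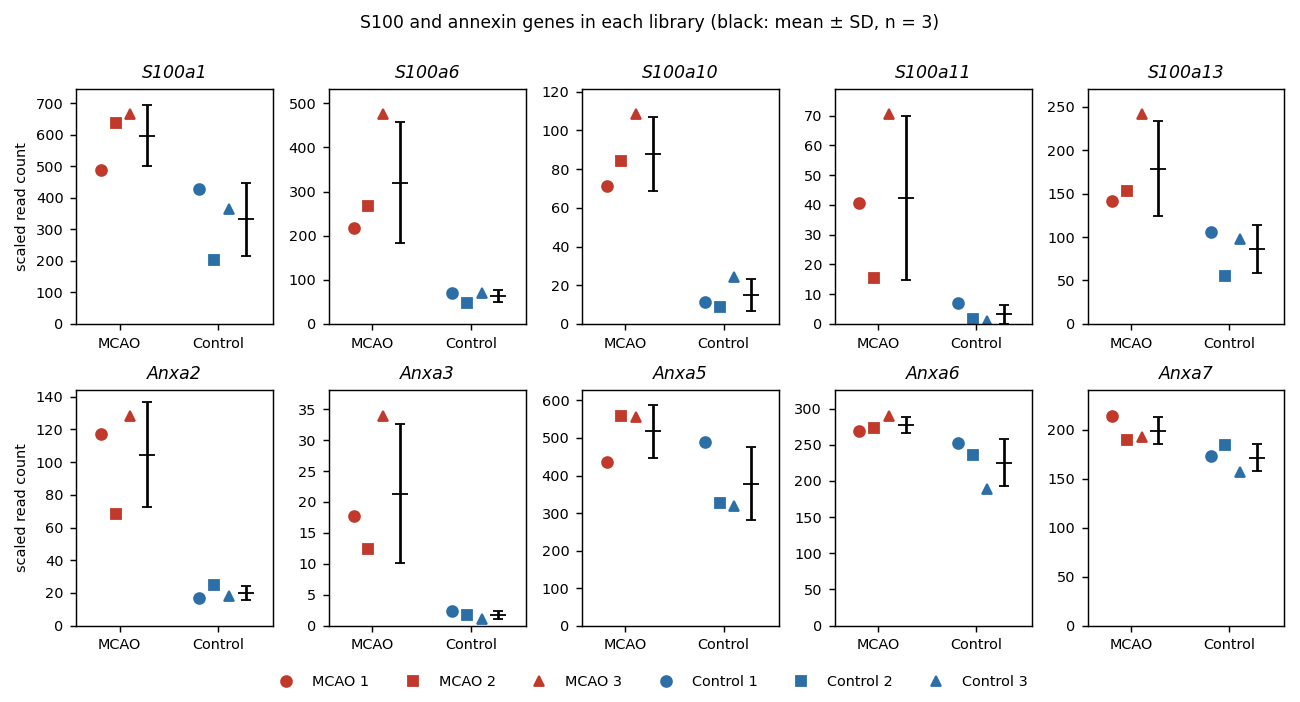
Scaled read counts (linear axes from 0) of the 10 members in each library, with MCAO in red to the left and control in blue to the right; the symbol gives the animal and the black bar the mean ± SD over 3 animals. The groups are far apart in S100a6, S100a10 and Anxa2, close to each other in Anxa6 and Anxa7, and overlap in Anxa5, where control 1 at 489.5 lies above MCAO 1 at 435.

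Both genes of the S100A10-annexin A2 pair rose. S100a10 encodes the S100 protein that no longer needs calcium to bind its target (chromosome 3, 93555117 to 93564645, GRCm38). It stood at 71.2, 84.0 and 109 scaled reads in MCAO 1, 2 and 3, against 11.2, 8.87 and 24.1 in controls 1, 2 and 3. The lowest MCAO library was well above the highest control, and the controls differed among themselves, with control 3 highest. The log2 change was 2.60 (SE 0.36, limma adjusted p = 0.00102), a 6.05-fold rise on the log2(value + 1) scale. These values rest on 27 to 163 reads per MCAO library and 5 to 39 per control.

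Anxa2, the partner that carries the membrane-binding core (chromosome 9, 69453683 to 69491792), stood at 117, 68.4 and 129 scaled reads in MCAO 1, 2 and 3, against 16.7, 24.8 and 18.1 in controls 1, 2 and 3. The groups did not overlap, and MCAO 2, the shallowest library with 22 reads of the gene, was the lowest of its group. Its log2 change was 2.31 (SE 0.30, limma adjusted p = 0.000592), a 4.95-fold rise. S100a6, which encodes calcyclin, a calcium-binding S100 protein of growing cells (chromosome 3, 90612894 to 90614414), stood at 217, 267 and 476 scaled reads in MCAO 1, 2 and 3, against 69.9, 47.9 and 70.9 in controls 1, 2 and 3. Every MCAO library held several times the level of every control, and MCAO 3 stood above the other two. The log2 change was 2.27 (SE 0.26, limma adjusted p = 0.000216), a 4.82-fold rise. S100a6, S100a10 and Anxa2 were called under each of the 17 alternative settings tried.

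S100a11 and Anxa3 were near the floor in controls. S100a11 encodes calgizzarin, an S100 protein that binds annexin A1 (chromosome 3, 93520496 to 93526288). It had 69, 5 and 106 recovered reads in MCAO 1, 2 and 3, or 40.6, 15.6 and 70.6 scaled reads, against 24, 1 and 0 reads, or 6.91, 1.77 and the floor of 1, in controls 1, 2 and 3. The groups did not overlap, but the spread within MCAO was wide. The log2 change of 3.38 (SE 0.67, limma adjusted p = 0.0148) depends on the floor value; after division by depth the summed reads, 180 after MCAO and 25 in controls, stood in a ratio of 9.78, with a 95% exact Poisson interval of 6.42 to 15.5 for counting error only. S100a11 was not called without MCAO 1 (adjusted p = 0.0682), without MCAO 3 (0.133) or with no intensity trend (0.0708). A pseudogene, S100a11-ps, lies on chromosome 12 (73961087 to 73961577) and was not analysed here; the sources used here do not say how reads shared with it were counted.

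Anxa3 encodes a small annexin known from neutrophils and microglia as well as other cells (chromosome 5, 96793385 to 96845968). It had 30, 4 and 51 reads in MCAO 1, 2 and 3, or 17.6, 12.4 and 34.0 scaled reads, against 8, 1 and 0 reads, or 2.30, 1.77 and the floor of 1, in controls 1, 2 and 3. MCAO 2 rested on 4 reads, and no control reached the level of any MCAO library. The log2 change was 2.97 (SE 0.67, limma adjusted p = 0.03) and also depends on the floor; the summed reads over depth stood in a ratio of 12.8, with a 95% exact Poisson interval of 6.45 to 29.0. It was not called without control 1 (adjusted p = 0.0517), control 3 (0.0587) or MCAO 1 (0.0993), and fell under the filter without MCAO 3. The summed microglia, blood myeloid and oligodendrocyte markers given above also lay higher in every MCAO library than in every control. Within groups the microglia sum was highest in MCAO 1 and control 2. Among MCAO libraries S100a11 and Anxa3 were highest in MCAO 3. Their order among controls cannot be read, since controls 2 and 3 held 1 and 0 reads of each gene. In controls 2 and 3, 3 reads equal 5.32 and 4.53 scaled reads. The part of microglia, blood myeloid cells and oligodendrocytes in either gene was not tested.

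S100a13 rose and S100a1 lay just outside the threshold. S100a13 takes part in the release of proteins that lack a signal peptide, such as FGF1 (chromosome 3, 90514233 to 90524581). It stood at 142, 152 and 242 scaled reads in MCAO 1, 2 and 3, against 106, 55.0 and 98.1 in controls 1, 2 and 3. Its log2 change was 1.05 (SE 0.26, limma adjusted p = 0.0453), a 2.08-fold rise, and it was called in 1 of the 6 fits that leave out 1 library, the one without control 1 (adjusted p = 0.0442 there and 0.0506 to 0.179 in the other fits), and not with no intensity trend (0.197). S100a1, a calcium-binding S100 protein known as a regulator of calcium pumps and channels in heart muscle (chromosome 3, 90511034 to 90514330), stood at 488, 638 and 667 scaled reads in MCAO 1, 2 and 3, against 428, 202 and 364 in controls 1, 2 and 3. The groups did not overlap, yet control 1 came within reach of MCAO 1. Its log2 change of 0.90 (SE 0.23, 95% interval 0.41 to 1.40) was not called by limma (adjusted p = 0.0508), while it was called by edgeR (0.0363) and DESeq2 (0.0106) on recovered reads. In limma it was called without control 1 (0.0248), with a pseudocount of 10 (0.0368), with quantile normalisation (0.0398) and with TMM scaling (0.0482). Of 17 alternatives 6 called S100a1. Among those that did not were the fits without control 2 (limma adjusted p = 0.0873), without MCAO 2 (0.144) and without MCAO 3 (0.161), and with no intensity trend (0.227). Control 2 was the lowest library for both genes. S100a1 and S100a13 lie head to head on opposite strands, their annotated spans overlap by 98 bases, and without a stated strand setting reads in the overlap cannot be assigned to one of them.

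The other 3 annexins did not pass the test. Anxa5, which binds exposed phosphatidylserine (chromosome 3, 36448923 to 36475887), stood at 435, 559.9 and 557 scaled reads in MCAO 1, 2 and 3, against 489.5, 326 and 318 in controls 1, 2 and 3, a log2 change of 0.47 (95% interval 0.08 to 0.86, limma adjusted p = 0.178). Anxa6, an annexin with a doubled core (chromosome 11, 54978953 to 55033471), stood at 269, 274 and 290.4 scaled reads in MCAO 1, 2 and 3, against 252, 236 and 189 in controls 1, 2 and 3. Its log2 change was 0.31 (95% interval -0.03 to 0.65, limma adjusted p = 0.300). Anxa7, also named synexin (chromosome 14, 20455261 to 20480133), stood at 215, 189.7 and 193 scaled reads in MCAO 1, 2 and 3, against 174, 184 and 157 in controls 1, 2 and 3. Its log2 change was 0.21 (95% interval -0.12 to 0.55, limma adjusted p = 0.487). In Anxa6 and Anxa7 each MCAO library lay above each control by a small margin, and the upper ends of the intervals, which are not adjusted for the number of genes, were 0.65 and 0.55 on the log2 scale. Limma called none of the 3 under any of the alternatives tried, and neither did edgeR or DESeq2. Reads of Anxa6 and of Gm19911, an annotated long noncoding RNA inside its span, could not be told apart without a strand setting.

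**Figure D2:**
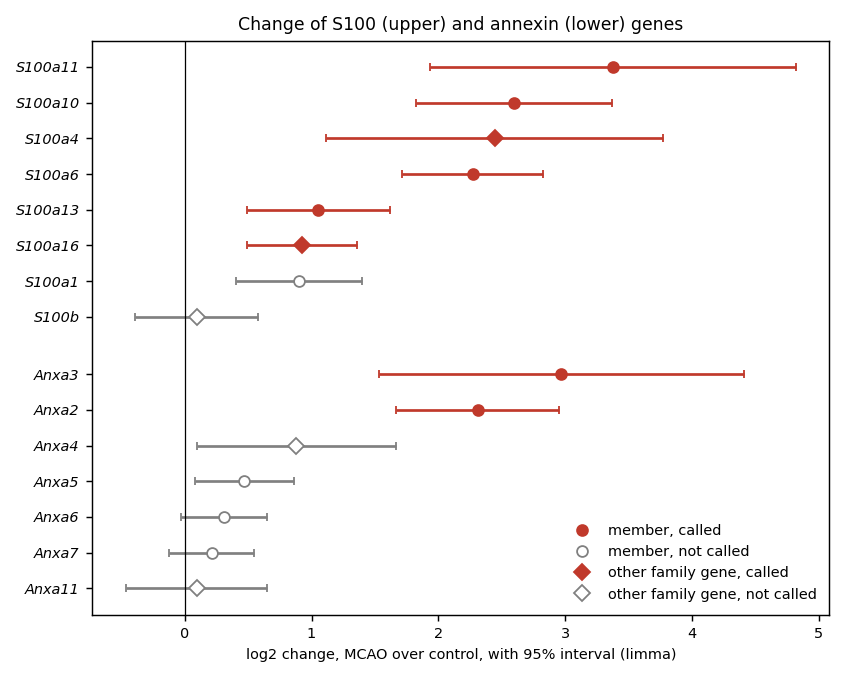
Log2 change of MCAO over control with its 95% interval from limma (x axis), for the 10 members (circles) and the other tested genes of both families (diamonds), S100 genes above and annexins below. Filled red symbols passed the test and open grey symbols did not; S100a11 at 3.38 and Anxa3 at 2.97 have the widest intervals among the members, and Anxa6 and Anxa7 the narrowest.

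The remaining family genes were few among the tested ones. Of 11 other S100 genes 3 were tested, and 2 rose: S100a4, also known as metastasin or fibroblast-specific protein, and S100a16. S100a4 stood at 22.9, 12.4 and 34.0 scaled reads in MCAO 1, 2 and 3, against 2.59, 1.77 and 6.04 in controls 1, 2 and 3, a log2 change of 2.44 (SE 0.62, limma adjusted p = 0.0481); it passed the filter only through its MCAO values. S100a4 was not called with a pseudocount of 0.1, with quantile normalisation, with no intensity trend, or without control 1, control 2 or MCAO 1 (adjusted p 0.0578 to 0.136). S100a16 stood at 448, 479 and 621 scaled reads in MCAO 1, 2 and 3, against 334, 192 and 302 in controls 1, 2 and 3, a log2 change of 0.93 (SE 0.20, limma adjusted p = 0.025). It was not called without MCAO 2 (adjusted p = 0.0514), without MCAO 3 (0.118) or with no intensity trend (0.174). S100b, the astrocyte S100 gene and named here after its values were seen, was at 889.5, 1176 and 1112 scaled reads in MCAO 1, 2 and 3, against 1212, 632 and 1245 in controls 1, 2 and 3. The groups overlapped, and the log2 change was 0.10 (95% interval -0.39 to 0.58, limma adjusted p = 0.860) and -0.22 without control 2. Of 7 other annexin genes 2 were tested and limma called 0, with 1 at an unadjusted p under 0.05 and 0 called by edgeR or DESeq2. Over all 12549 tested genes limma gave 2420 at that unadjusted threshold. Anxa4 was at 37.5 ± 10.8 scaled reads after MCAO and 20.2 ± 7.53 in controls, and Anxa11 at 62.4 ± 9.53 and 59.7 ± 18.3 (SD, n = 3 each).

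Along chromosome 3 the S100 genes fall into a stretch near S100a1 and a stretch around S100a11 and S100a10, 2906 kb beyond S100a6. Within the 3.05 Mb from S100a1 to S100a10 on GRCm38.p6 there are 15 annotated S100 genes, of which 7 were tested and 6 rose, with a median log2 change of 2.27; all 7 had every MCAO library above every control. Over all tested genes 2.3% were called higher and 12.4% had every MCAO library above every control. The 7 are 5 members together with S100a4 and S100a16, so the count repeats the values above, and S100a4 and S100a11 are among the tested genes only through their MCAO values, with control means of 3.47 and 3.23 scaled reads. Of 55 other protein-coding genes of the interval 2 were tested and limma called 0. At an unadjusted p under 0.05 limma gave 1 (Tchh, named after its values were seen), beside 2420 of all 12549 tested genes. Of these other interval genes edgeR and DESeq2 called 0. S100a1, S100a13 and S100a16, within 26.2 kb of each other, had log2 changes of 0.90, 1.05 and 0.93, and S100a4 and S100a6, separated by 6.8 kb, had 2.44 and 2.27. S100a11 and S100a10, separated by 28.8 kb, had 3.38 and 2.60.

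**Figure D3:**
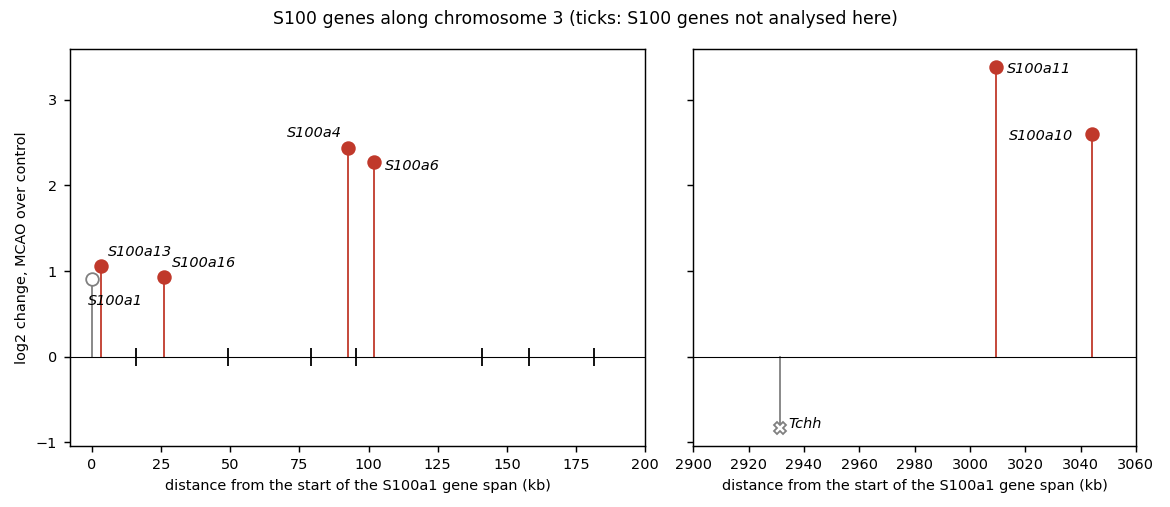
Log2 change of MCAO over control (y axis) against distance in kb from the start of the S100a1 gene span (x axis) on chromosome 3, drawn in 2 stretches with the region between them left out. Filled red circles are S100 genes that passed the test, the open circle is S100a1, the cross is another tested gene and ticks on the zero line are S100 genes not analysed here; the neighbours S100a4 and S100a6 are at 2.44 and 2.27, and S100a1 and S100a13 at 0.90 and 1.05.

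Differences between members within each library show whether they changed by unequal amounts. Each is the difference of 2 log2 values in the same library, and the groups were compared by exact permutation (two-sided), where 3 against 3 animals give a p of 0.1 at the least; 4 such differences were computed. S100a10 minus Anxa2 was -0.22 ± 0.50 after MCAO and -0.51 ± 0.89 in controls (SD, n = 3 each), a difference of 0.29 (SE 0.59) between groups with an exact permutation p of 0.7 (adjusted 0.7). The libraries overlapped and the difference was 0.74 without control 3 and -0.15 without control 2. Since p cannot fall under 0.1 here, the test could not detect unequal changes of the pair, and it does not show equal ones. Anxa2 minus Anxa6 was -1.45 ± 0.46 after MCAO and -3.45 ± 0.34 in controls, a difference of 2.00 (SE 0.33). S100a6 minus S100a1 was -0.97 ± 0.42 after MCAO and -2.33 ± 0.27 in controls, a difference of 1.37 (SE 0.29). S100a11 minus S100a13 was -2.25 ± 0.83 after MCAO and -4.58 ± 0.96 in controls, a difference of 2.32 (SE 0.73). This last value is a description only, since S100a11 passed the filter through its MCAO values and was near the floor in controls. For Anxa2 minus Anxa6 and for S100a6 minus S100a1 each MCAO library lay above each control, with an exact permutation p of 0.1 (adjusted 0.133 over the 4 differences), the smallest the design allows.

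**Figure D4:**
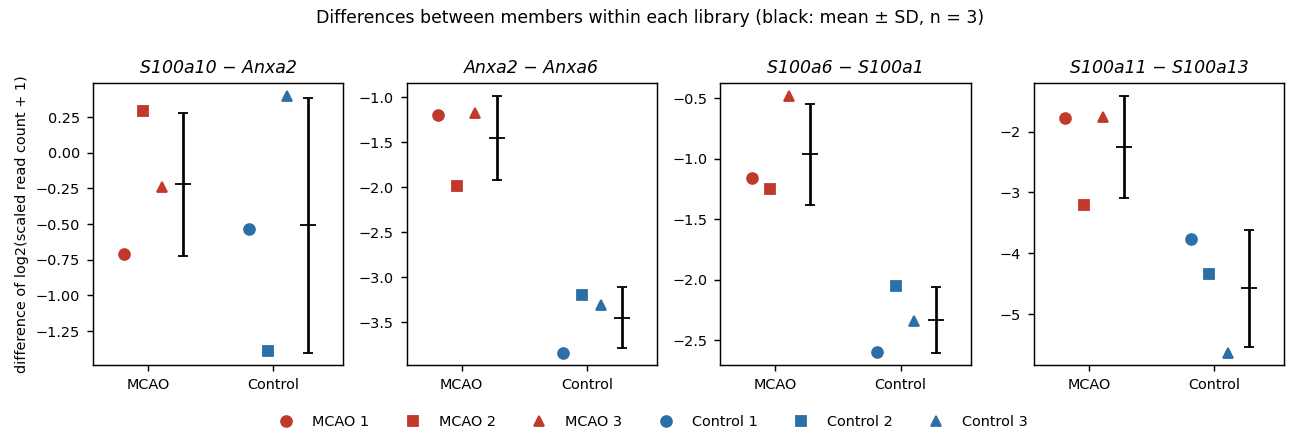
Difference of log2(scaled read count + 1) between members in the same library (y axis), with MCAO in red to the left and control in blue to the right; symbols give the animal and black bars the mean ± SD over 3 animals. S100a10 minus Anxa2 overlaps between the groups, while Anxa2 minus Anxa6 and S100a6 minus S100a1 are higher in every MCAO library than in every control; S100a11 minus S100a13 is shown as a description, since S100a11 was near the floor in controls.

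The order of the animals differed between members, but MCAO 3 was often at the top. It held the highest MCAO value in 8 of 10 members, while it did so in 30.4% of all tested genes, and it held the lowest in 0 members, against 29.3% of tested genes. MCAO 1 was lowest in 6 members and MCAO 2 in 4, compared with 31.9% and 38.8% of all tested genes. Among controls, control 1 was highest in 6 members, compared with 27.9% of tested genes. These 6 include S100a11 and Anxa3, whose order among controls cannot be read at 1 and 0 reads in controls 2 and 3. Microglia markers summed to 3354, 2466 and 3198 scaled reads in MCAO 1, 2 and 3 and to 682, 938 and 795 in controls 1, 2 and 3. Astrocyte markers summed to 39378, 47416 and 51456 in MCAO 1, 2 and 3 and to 71255, 42981 and 68326 in controls 1, 2 and 3. Oligodendrocyte markers summed to 13645.5, 15831 and 12330 in MCAO 1, 2 and 3 and to 8320, 9496 and 9284 in controls 1, 2 and 3. The part of any of these lists in the values of MCAO 3 was not tested.

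The genes closest in pattern to Anxa2 and S100a10 were found by the mean absolute difference of log2 values after each gene's own mean over the 6 libraries was taken off. For Anxa2 they included Apobec1, a cytidine deaminase gene, Trf, the transferrin gene, Igfbp3, an insulin-like growth factor binding protein gene, and C4b, a complement gene, at differences of 0.24 to 0.26. For S100a10 they were Capg, an actin-capping protein gene, Mki67, a marker of dividing cells, Plau, the urokinase gene, S100a4 and Tgfb1, at 0.24 to 0.27. Control means of these S100a10 neighbours were 3.47 to 8.19 scaled reads, and that of Apobec1 was 7.64. With a filter at a mean of 10, they are among the tested genes only through their MCAO values. Trf stood at 2118 scaled reads after MCAO on average and 517 in controls, and Capg at 48.2 and 7.12. Anxa2 and S100a10 were 0.51 apart: S100a10 was number 105 in closeness to Anxa2 among all tested genes, and Anxa2 number 59 in closeness to S100a10. S100a6 was closer to S100a10, at 0.37, which placed it at number 17. All of these genes but Tgfb1 (limma adjusted p = 0.0594) were called higher after MCAO, and the measure of likeness takes in that difference between groups.

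Of 20 listed genes whose proteins work with S100 proteins or annexins, 16 were tested and limma called 0. At an unadjusted p under 0.05 limma gave 4 of the 16, beside 2420 of all 12549 tested genes. Of the listed genes edgeR and DESeq2 called 0, and the median log2 change was -0.25. The summed level of the list was 5732 to 6664 scaled reads after MCAO and 6910 to 7333 in controls. By the rule for lists with no call, those with the highest values are named, not scaled by length: Atp2a2, a calcium pump gene that S100A1 regulates in heart muscle, at 2277 ± 184 scaled reads after MCAO and 2586 ± 107 in controls, and Syt1, a synaptic calcium sensor gene, at 1923 ± 317 and 2398 ± 165 (SD, n = 3 each). Atp2a2 and Syt1 made up most of the summed level, with 2479 and 2287 of 6664 scaled reads in MCAO 1. Syt1 is also on the list of neuron markers. Chosen after their values were seen, Ahnak, which encodes the giant scaffold bound by the S100A10-annexin A2 complex, was at 41.8, 93.3 and 39.3 scaled reads in MCAO 1, 2 and 3, against 29.4, 33.7 and 31.7 in controls 1, 2 and 3. With a log2 change of 0.75 (SE 0.33) it was not called by limma (adjusted p = 0.235), and MCAO 2 stood apart from the other two. Cacybp, the calcyclin-binding protein gene, was at 199 ± 35.3 after MCAO and 189 ± 23.2 in controls. Of 23 listed membrane repair genes, which include Ahnak and some other partners, 20 were tested, 1 rose and 0 fell, with a median log2 change of 0.22, beside a background of 2.3% higher. The gene that rose was Capns1, the small calpain subunit, at 547 ± 61.9 scaled reads after MCAO and 335 ± 47.9 in controls (log2 change 0.71, SE 0.16, limma adjusted p = 0.0262). It was not called without control 2, control 3, MCAO 2 or MCAO 3 (adjusted p 0.056 to 0.112) or with no intensity trend (0.161).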

How the data were processed

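Per the labels' protocols, the precipitation was done 2 times for each animal, the RNA joined again, and polyA RNA made into Illumina TruSeq libraries. Technical replicates, 2 per animal in the series design, stand as 1 column. Replicates are numbered in record order, which pairs nothing, and the labels do not say whether the animals were handled in batches. The authors deposited a normalised signal, that is read counts over a scale factor for each library, as the steps in the deposited values show. The submitters' processing notes list mm10, CASAVA 1.8, HISAT2, Partek 6.6, R 3.3.1 and DESeq2; the sources used here name no counter, strand setting, filter on genes or scale factor. Division by each column's step gave whole reads, within 0.1 read, for 99.95% of the values above the floor in control 1 and 100% in the others.

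The main test was limma 3.58.1 in R 4.3.3 (two-sided, moderated with an intensity trend, pseudocount 1, genes with a mean of at least 10). It was run on simulated data in which only genes with a mean of at least 50 were given a change. That run does not cover changes in low genes such as S100a11, Anxa3 and S100a4. SE is the moderated standard error. Alternatives were other pseudocounts, filters, scalings and variance models, leaving out each library, and edgeR 4.0.16 and DESeq2 1.42.0 on recovered reads; leaving out the shallowest library of each group was added after seeing the data. Members, gene lists and tests were chosen with earlier results of these data known. Named genes are the members, Rpl22, up to 4 called genes of each list (or else the 2 with the highest scaled counts, with no correction for length) and the 5 genes closest in pattern to Anxa2 and to S100a10; marker genes among them are given mainly as list counts, and 1 gene the rule names is not reported here. Gene positions and promoters are from RefSeq on GRCm38.p6, the assembly that mm10 names.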

Additional observations from a re-analysis of the deposited data

How the results depend on the processing

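In the comparison of MCAO versus Control over all genes, 387 were called, 157 with no intensity trend and 144 to 304 with 1 library left out, the fewest without MCAO 3; edgeR called 520, DESeq2 549, and limma without the shallowest library of each group 559. As reported, 99 genes were called lower after MCAO. That number was 18 with no intensity trend, 161 by DESeq2 and 231 once both shallowest libraries were dropped; dropping control 1 gave 22, control 3 gave 25, MCAO 3 gave 28 and MCAO 2 gave 48. Genes called higher numbered 288, and 181 with a mean of at least 50, 139 with no intensity trend, and 172, 187 and 116 after dropping MCAO 1, 2 and 3 in turn. The members called numbered 3 to 6 with 1 library left out (3 without MCAO 1 and 3 without MCAO 3), 4 with a mean of at least 50 or with no intensity trend, and 6 or 7 under the other settings, against 6 as reported. All 10 members had a positive log2 change in every fit that tested them. The difference S100a10 minus Anxa2 ranged from -0.15 to 0.74 with 1 library left out, negative without control 2. Sign changes were also seen among uncalled genes. With 1 library left out, Anxa11 ranged from -0.094 to 0.32 in log2 change (negative without control 2, and without MCAO 3), S100b from -0.22 to 0.26 (negative without control 2) and Cacybp from -0.065 to 0.19 (negative without control 2, and without MCAO 1). S100b was at -0.30 without the shallowest library of each group. The cause of these changes was not tested. No scaling moved the median log2 change of all genes by 0.1. No paired analysis was possible because the labels give no replicate numbers shared between groups. Depth limits the low genes S100a11, Anxa3 and S100a4, with 5, 4 and 4 reads in MCAO 2.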
